A study of Mus musculus with 13 samples.

Results

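Interferon-stimulated genes (ISGs) are the genes that cells switch on when interferon, a secreted alarm protein, binds its receptor. The 47 genes described here are a list of mouse ISGs chosen by symbol and not by a threshold on their values, though with earlier results of these data known. All 47 were found among the 24328 genes of the deposited tables, and each had at least 10 counts in total over the 13 libraries. The data are mRNA sequencing libraries from mouse bone marrow. There was 1 library of normal granulocyte-monocyte progenitors (GMP, labelled WT), 1 of leukemia stem cells (LSC) and 1 of more mature cells of the leukemia (mAML). The other 10 libraries are LSC kept with A-485, an inhibitor of the acetyltransferases p300 and CBP, for 0, 8, 24, 48 or 72 h, with 2 libraries per time. The leukemia carries the fusion gene MLL-AF10, and the growth protocol given for its cells is RPMI medium with fetal bovine serum and WEHI-conditioned medium. The 0 h libraries are labelled untreated, so all later times are set against untreated cells and not against a vehicle. Animal strain, sex and age, the number of animals or cultures, and the dose are not given in the sources used here. Nothing says that the libraries of a time came from separate cultures, so the p-values measure only the spread between these libraries, which may be technical.

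As background, type I interferons act through the receptor chains IFNAR1 and IFNAR2 and the kinases JAK1 and TYK2. The factor that forms, which holds STAT2 and IRF9, binds a DNA element called the interferon-stimulated response element (ISRE). Interferon gamma acts through IFNGR1 and IFNGR2, and many of its target genes carry a gamma-activated sequence (GAS). The products of ISGs detect foreign RNA or DNA, cut or edit RNA, block translation, attach the ubiquitin-like protein ISG15 or attack the vacuoles of pathogens. Many ISGs are also active at a low level with no interferon added. p300 and CBP acetylate histones at enhancers and are co-activators that STAT and IRF factors can bind.

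RefSeq promoter windows (build GRCm38.p6, 250 bases before to 50 after a start site) were at hand for 35 of the 47 genes, as 42 windows. The ISRE core, which is GAAA, any 2 bases and GAAA again, was searched for on both strands and was present in 18 of the 42 windows (42.9%) and in 1131 of 32851 windows of all genes (3.44%). The GAS letters TTCNNNGAA, also searched on both strands, were present in 12 of the 42 (28.6%) and in 2726 of all windows (8.3%). Shown here are the upstream stretches of 8 ISGs whose values are given in full below, so that the element can be seen beside the measurements. All 8 were called higher at 8 h, but the calls of Isg15, Rsad2 and Cxcl10 were lost when single libraries were left out. Genes given in full were picked by small p-values in these same data, so these calls partly follow from that choice. Ifih1, Gbp3, Ifitm3 and Bst2 hold a core in their windows too, but were not called higher at 8 h and are not shown. Oas1a and Oas3, not called at 8 h, also hold a core, but are not shown because the table's start is not at the 5′ end of either gene. Each line runs 5′ to 3′ on the gene's strand, with the ISRE core or its reverse complement in capitals and up to 25 bases on either side.
Ifit1 (chr19:34640760-34640838, + strand): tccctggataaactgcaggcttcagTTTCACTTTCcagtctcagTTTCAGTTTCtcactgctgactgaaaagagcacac
Isg15 (chr4:156200850-156200921, - strand): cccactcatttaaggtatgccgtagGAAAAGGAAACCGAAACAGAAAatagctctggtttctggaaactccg
Rsad2 (chr12:26456538-26456597, - strand): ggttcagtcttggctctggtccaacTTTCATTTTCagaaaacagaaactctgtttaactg
Cxcl10 (chr5:92349068-92349127, - strand): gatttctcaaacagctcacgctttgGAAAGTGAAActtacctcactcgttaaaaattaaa
Irgm1 (chr11:48871421-48871475, - strand): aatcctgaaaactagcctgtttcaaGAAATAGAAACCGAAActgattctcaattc
Irgm2 (chr11:58214888-58214947, + strand): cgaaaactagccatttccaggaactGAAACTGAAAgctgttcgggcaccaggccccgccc
Gbp2 (chr3:142620579-142620638, + strand): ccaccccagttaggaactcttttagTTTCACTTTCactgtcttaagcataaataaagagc
Gbp5 (chr3:142496744-142496803, + strand): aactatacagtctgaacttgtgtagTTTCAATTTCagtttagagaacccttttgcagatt
Isg15 holds 3 overlapping cores in a row, Irgm1 holds 2 that overlap, Ifit1 holds 2 that lie apart, and the other 5 stretches hold 1 each. A match is a run of letters and not a measured binding site. Among the ISGs tested at 8 h of A-485, 12 of 18 with an ISRE core in the window and 6 of 15 without one rose. Of those with a GAS match 6 of 12 rose, and of those without one 12 of 21 rose. Of all 11119 genes tested, 17.9% were called higher at 8 h, and that share was not split by motif. These counts are descriptions, with no test.

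Total expected counts were 24532508 in GMP, 40468515 in LSC, 47257642 in mAML, and 6467764 to 9763276 in the time course. Levels over time are CPM, counts relative to the size of the library, scaled by TMM, which corrects for differences in RNA make-up between libraries. Levels set beside each other for different genes are TPM, which also correct for transcript length. The A-485 libraries differed from 0 h across the whole transcriptome: of 11119 genes tested, 59.8% were called in the joint test of the 4 treated times. TMM factors were 0.830 and 0.832 at 0 h and 1.03 to 1.07 in the treated libraries, and transcripts weighted by their reads had a mean effective length of 2848 and 2861 bases at 0 h and 3045 to 3530 bases later. Summed TPM of 6 progenitor markers, Kit, Mpo and Elane among them, was 2594 and 3264 at 0 h and 241 to 644 in the 8 treated libraries, with at most 2 of the 6 at 0 counts in any library. Mpo and Elane carried this sum: by the test, 4 of the 6 were lower at each time, and 0, 1, 0 and 2 were higher at 8, 24, 48 and 72 h. Hoxa9 was at 48.5 and 59.9 TPM at 0 h and 145 and 146 at 72 h, and Meis1 at 12.5 and 19.7 and then 68.5 and 46.6. Kit, which marks progenitors, went from 46.0 and 45.2 TPM at 0 h to at most 2.5 under A-485, so this mark of the labelled cell type was close to 0 in the treated libraries. Cd34, another progenitor mark, was at 226 and 248 TPM at 0 h and 76.5 to 140.1 later. Summed TPM of 7 monocyte and macrophage markers was 5389.8 and 7565 at 0 h, most of it Ly6c2, and 294 to 3302 later. Of the 6 that could be tested, 0 were higher and 4 lower at 8 h, 1 and 1 at 24 h, 1 and 1 at 48 h, and 0 and 1 at 72 h, and Cd68 went from 36.5 and 37.4 TPM at 0 h to 111 and 89.4 at 24 h. Markers of plasmacytoid dendritic cells, the main producers of type I interferon, summed to 2.99 and 3.14 TPM at 0 h and to 3.24 to 9.40 TPM later, with Siglech at 0 in all 10 libraries and 3 to 5 of the 6 at 0 counts. The 6 B cell markers summed to at most 1.24 TPM, and the 8 T and NK cell markers to 97.1 and 188 TPM at 0 h and 1.56 to 20.9 later, with 3 to 7 at 0 counts and Nkg7 at 182 and 92.2 TPM of the 0 h sums. The 5 erythroid markers summed to at most 5.56 TPM, and the 6 stromal and endothelial markers to 332 and 375 TPM at 0 h and 139 to 323 later, nearly all from Pecam1, with Cdh5 at 0 in all 10.

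A-485 was followed by higher levels of many ISGs within 8 h. Of the 40 ISGs with enough counts to test, 21 rose and 2 fell at 8 h (background over all genes tested: 17.9% higher, 21% lower). At 24 h 19 rose and 3 fell (23.2% and 27.1%), at 48 h 23 rose and 2 fell (25.2% and 30.5%), and at 72 h 16 rose and 4 fell (25.9% and 29.4%). Calls are from edgeR's quasi-likelihood test, at a p under 0.05 after Benjamini-Hochberg adjustment over all 11119 genes. Over both directions, 38.9%, 50.3%, 55.6% and 55.3% of all genes were called at 8, 24, 48 and 72 h. The median log2 change of the 40 was 1.41, 1.06, 1.16 and 0.87 at 8, 24, 48 and 72 h, while the median of all genes tested lay between -0.04 and 0.01. With the genes that had no count at 0 h held at their lower bound, the median at 24 h was 1.00 and the others did not move. In the joint test of all 4 times, 22 of the 40 (55%) were called, beside 59.8% of all genes. The summed TPM of the 47 genes was 780 and 849 at 0 h and 1379 to 1924 in the treated libraries, and the groups did not overlap. On the log2(TPM + 1) scale the median of all genes tested was also above 0 h, by 0.41 to 0.62, so part of this gap is not particular to ISGs. In bulk RNA, fewer cells of a type and less RNA per cell cannot be told apart, and the part that the shifts in progenitor and monocyte markers had in these changes was not tested.

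**Figure D1:**
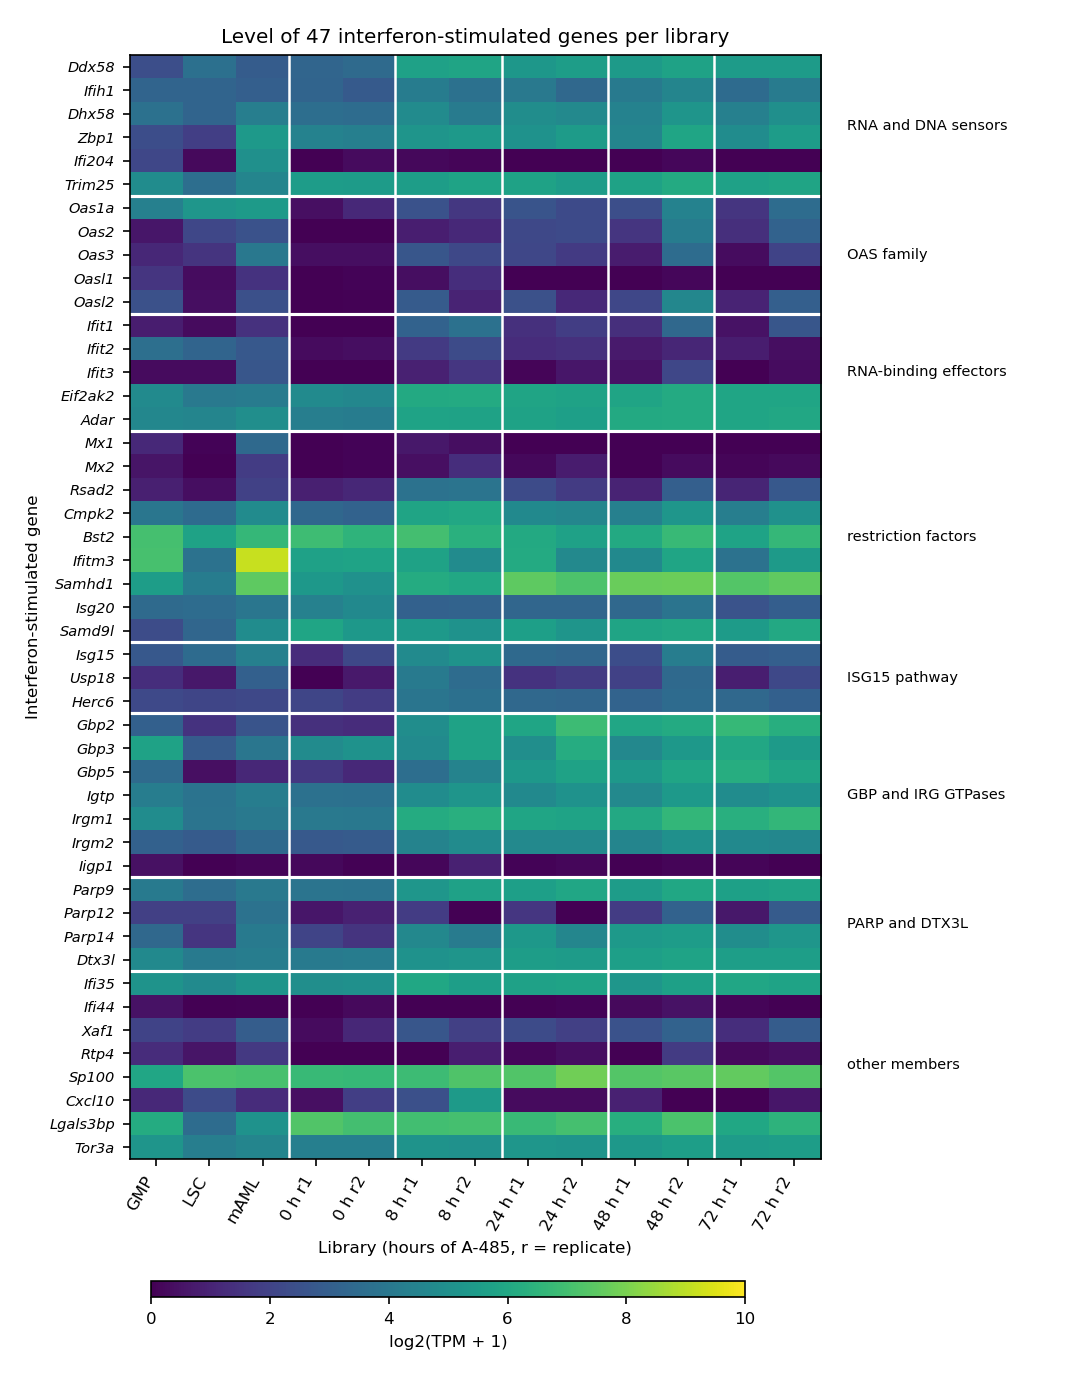
Level of each of the 47 ISGs (rows, grouped by role) in each of the 13 libraries (columns), as log2(TPM + 1) on a colour scale from 0 to 10. The treated libraries are brighter than 0 h for Ddx58, Adar, the GBP and IRG GTPases and Parp14, and mAML holds the brightest cell, Ifitm3.

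These counts depended on single libraries. Leaving out 1 library at a time, 16 to 19 rose at 8 h, and without either 0 h library 12 rose at 24 h. At 48 h 14 rose without 0 h replicate 1 or without 48 h replicate 2, and 24 rose without 48 h replicate 1. With scaling by library size alone, 28 rose and 1 fell at 8 h, 22 and 1 at 24 h, 26 and 1 at 48 h, and 20 and 2 at 72 h. That scaling moved the median of all genes by 0.28 to 0.35 at these times and put 65.4% to 72.8% of all calls on the higher side, where TMM put 45.2% to 46.8%. Over all genes, library size alone gave 4078, 4175, 4415 and 4616 rises at 8, 24, 48 and 72 h. The values below are relative to the bulk of the transcriptome as TMM sets it. In limma on log2(TPM + 1), the calls of Oasl2 at 8, 24 and 72 h, Ifit1 at 24 and 72 h, Ifit3 at 8 h, Oas3 at 48 h, Lgals3bp at 48 h, Trim25 at 72 h, and Bst2 and Samd9l at each of their times were lost. That setting also called changes missed by edgeR with TMM: Samhd1 and Tor3a at 8 h, Ifih1 at 8 and 48 h, Dhx58 at all 4 times, Ifi35 at 8, 24 and 72 h, Isg15 at 24 and 48 h, and Cmpk2 at 72 h. Trim25 and Ifi35 were called higher by it at 48 h, where the edgeR change had the other sign. Oas2 at 8 h passed with DESeq2, library size alone and no filter, and Lgals3bp at 24 h with DESeq2 and no filter. With the trend on transcript length removed, those of Oas3 at 48 h, Oasl2 at 24 h, Eif2ak2 at 72 h and Bst2 at both its times were lost. Of the 21, 19, 23 and 16 rises, 15, 12, 13 and 12 kept their call in every setting and without each library in turn. Those kept at all 4 times were Ddx58, Adar, Gbp2, Gbp5, Irgm1, Irgm2, Parp9, Parp14 and Dtx3l.

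**Figure D2:**
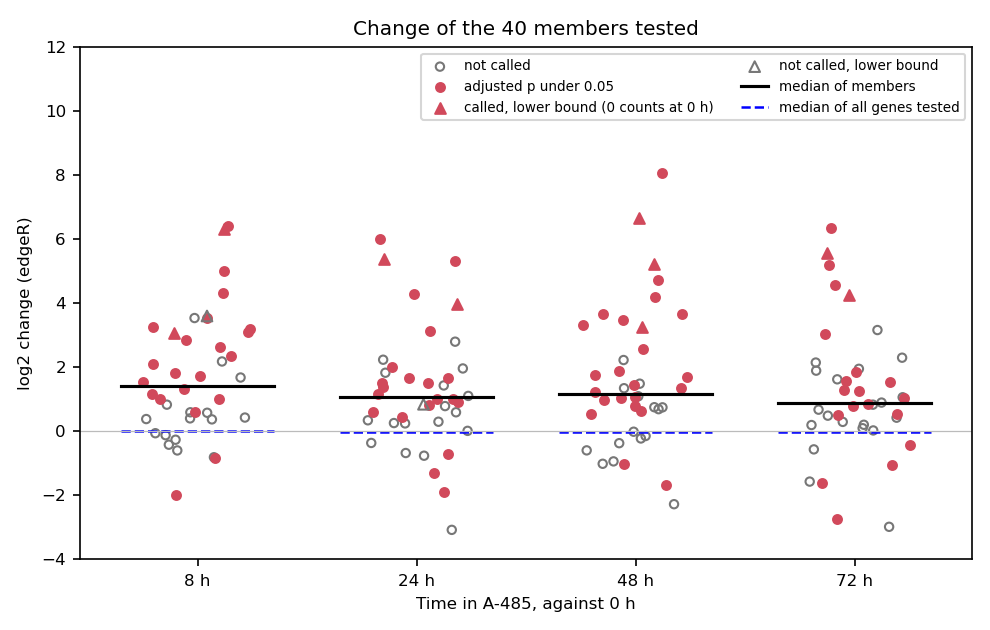
Change of the 40 ISGs tested, as log2 against 0 h (y axis), at each treated time (x axis). Filled points passed an adjusted p of 0.05, triangles are lower bounds for genes with 0 counts at 0 h, the solid bar is the median of the ISGs (1.41, 1.06, 1.16 and 0.87) and the dashed bar that of all genes tested.

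The sensors of foreign nucleic acid gave 1 clear riser. Ddx58, which encodes the cytosolic RNA sensor RIG-I, was at 35.5 and 42.5 CPM at 0 h, 160.1 and 169 at 8 h, 109 and 138 at 24 h, 111 and 139 at 48 h, and 109 and 115 at 72 h. All 8 treated libraries lay above both 0 h libraries. It rose at all 4 times, by 1.52 ± 0.16 to 2.08 ± 0.16 (largest adjusted p = 0.000119) on the log2 scale, and was the ISG sensor with the smallest joint p. Ifih1 encodes MDA5, a sensor of long double-stranded RNA. It was at 39.7 and 28.8 CPM at 0 h, 60.9 and 41.1 at 8 h, 49.9 and 31.6 at 24 h, 47.5 and 67.5 at 48 h, and 28.4 and 49.6 at 72 h, and the treated libraries overlapped those at 0 h. Its changes of 0.57, 0.25, 0.75 and 0.19 at 8, 24, 48 and 72 h did not pass. Dhx58, which encodes LGP2, a regulator of RIG-I and MDA5, was at 21.9 and 20.3 CPM at 0 h, 39.8 and 23.6 at 8 h, 38.6 and 33.9 at 24 h, 24.4 and 43.5 at 48 h, and 22.3 and 36.6 at 72 h. Every treated library was above both 0 h libraries, yet the changes of 0.59, 0.78, 0.68 and 0.48 did not pass. Trim25 encodes a ubiquitin ligase that acts on RIG-I. It was at 215 and 207 CPM at 0 h, 163 and 187 at 8 h, 176 and 150.1 at 24 h, 156 and 204 at 48 h, and 147 and 166 at 72 h. All treated libraries were below both at 0 h, and the change passed at 72 h, at -0.43 ± 0.15 (adjusted p = 0.0353). That call was lost without any 1 of its 4 libraries (adjusted p 0.0605 to 0.177), and on the TPM scale the change had the other sign (0.28) and with library size alone it was -0.07, adjusted p = 0.712. Zbp1, a sensor of Z-form nucleic acid, had changes of 0.42 to 0.82, none called. Ifi204, a DNA sensor gene of a family of near copies, had at most 3 counts in any time-course library and was not tested.

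The oligoadenylate synthetases make a short RNA signal that turns on the RNA-cutting enzyme RNase L, and their genes were near 0 before treatment. Oas2 had 0 counts in both 0 h libraries. It was at 1.84 and 2.91 CPM at 8 h, 7.78 and 8.43 at 24 h, 3.79 and 35.5 at 48 h and 3.01 and 15.6 at 72 h. Against a floor of 3 counts over the 0 h group it was at least 41.2-fold higher at 24 h (adjusted p = 0.0131), at least 100.1-fold at 48 h (adjusted p = 0.00481) and at least 47.2-fold at 72 h (adjusted p = 0.01). The bound at 8 h was 12.1-fold and that change was not called (adjusted p = 0.0605). The 24 h call was lost without 0 h replicate 1 or 2 (adjusted p = 0.0601 and 0.0537).

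Oasl2 encodes an OAS-like protein. It had 1 count at 0 h in all and was at 12.1 and 1.79, 7.99 and 2.25, 5.42 and 38.2 and 1.5 and 11.5 CPM at 8, 24, 48 and 72 h. It was called higher at all 4 times (adjusted p = 0.0425, 0.0476, 0.00961 and 0.0338). With 1 count to divide by, the ratio at 48 h was 324 times, with a 95% exact counting interval whose lower end was 57.8, and at 8, 24 and 72 h the lower ends were 18.5, 14.1 and 17.7. Each of the 4 calls was lost without 0 h replicate 1 or 2 (adjusted p 0.051 to 0.205 over all leave-one-out losses of these calls), and those at 8, 24 and 72 h also without the higher library of that time. Oas1a was at 0.494 and 1.81 CPM at 0 h, 5.18 and 2.13 at 8 h, 5.08 and 3.80 at 24 h, 3.79 and 19.2 at 48 h, and 1.63 and 9.57 at 72 h, and Oas3 at 1.11 and 1.11 CPM at 0 h, 16.1 and 9.96 at 8 h, 9.18 and 6.41 at 24 h, 1.76 and 27.0 at 48 h, and 0.626 and 7.66 at 72 h. Oas1a and Oas3 passed at 48 h, Oas1a at 3.32 ± 1.09 (adjusted p = 0.0288) and Oas3 at 3.67 ± 1.32 (adjusted p = 0.0418). Both calls rest on 48 h replicate 2: without it the values were 1.73, adjusted p = 0.251 for Oas1a and 0.66, adjusted p = 0.698 for Oas3, and without either 0 h library both were lost too (adjusted p 0.0549 to 0.251 and adjusted p 0.148 to 0.698 over these losses). At other times the changes did not pass, but DESeq2 called Oas3 at 8 h (3.55, adjusted p = 0.00396) and 24 h (2.81, adjusted p = 0.0214) and Oas1a at 72 h (2.31, adjusted p = 0.0409). Oasl1 had 16 counts in 8 h replicate 2 and at most 3 in the other time-course libraries, and was not tested. Oas1a and Oasl1 have close relatives in the mouse genome, so their estimated counts are less certain.

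All 5 RNA-binding effectors rose at 8 h, and their later course split them. Ifit1, which binds foreign mRNA caps, had 0 counts in both 0 h libraries and was at 12.5 and 19.0 CPM at 8 h. It was at 2.38 and 3.80 at 24 h, 2.03 and 12.6 at 48 h and 0.501 and 7.06 at 72 h. This is at least 80.4-fold more than at 0 h (adjusted p = 0.00946), with bounds of 15.7-, 37.3- and 19.2-fold at 24, 48 and 72 h (adjusted p = 0.0352, 0.0126 and 0.0256). The 3 later calls did not hold without 0 h replicate 1 or 2. The 24 h call was also lost without either 24 h library, and those at 48 and 72 h without replicate 2 of that time (adjusted p 0.0502 to 0.165). Ifit2, a related cap- and RNA-binding protein gene, was at 0.741 and 0.975 CPM at 0 h, 5.52 and 9.18 at 8 h, 3.13 and 3.80 at 24 h, 1.35 and 2.32 at 48 h, and 1.5 and 0.598 at 72 h. It rose by 3.08 ± 0.58 (adjusted p = 0.00403) at 8 h and 2.0 ± 0.59 (adjusted p = 0.0206) at 24 h, with 1.09 at 48 h and 0.29 at 72 h. The libraries at 72 h lay on either side of those at 0 h, and the 24 h call was lost without 0 h replicate 1 or 2 or 24 h replicate 2 (adjusted p 0.0663 to 0.107). Ifit3, of the same gene cluster with near copies, had 0 counts at 0 h and was at least 8.33-fold higher at 8 h (adjusted p = 0.041) and 9.53-fold at 48 h (adjusted p = 0.0268). Those Ifit3 calls were lost without any 1 of the 8 h libraries, without 48 h replicate 2, and without either 0 h library (adjusted p 0.0523 to 0.168).

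Eif2ak2 and Adar were abundant before treatment and changed by less. Eif2ak2 encodes PKR, the kinase that stops translation on double-stranded RNA. It was at 97.0 and 85.9 CPM at 0 h, 182 and 181 at 8 h, 141 and 136 at 24 h, 126 and 156 at 48 h, and 127 and 131 at 72 h, and rose at all 4 times by 0.49 ± 0.12 to 0.99 ± 0.12 (largest adjusted p = 0.00822). The 72 h call was lost without 0 h replicate 2 (0.45, adjusted p = 0.0501) and when a trend on transcript length was removed (0.31, adjusted p = 0.067). Adar, which encodes an RNA-editing enzyme that keeps the cell's own double-stranded RNA from being sensed, was at 91.1 and 88.2 CPM at 0 h, 202 and 194 at 8 h, 184 and 173 at 24 h, 205 and 215 at 48 h, and 171 and 195 at 72 h. It rose by 0.99 ± 0.10 to 1.23 ± 0.10 (largest adjusted p = 0.000132). For both genes all 8 treated libraries lay above both at 0 h.

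Of the 7 restriction factors tested, 2 rose and 2 fell at 8 h, shares near those of all genes (17.9% and 21%), and 1 of the falls, Samd9l, depended on single libraries. Samhd1, whose product breaks down the nucleotides that viruses need to copy DNA, was at 131 and 107 CPM at 0 h, 169.6 and 149.5 at 8 h, 415 and 341 at 24 h, 436 and 447 at 48 h, and 316 and 386 at 72 h. All treated libraries were above both at 0 h. The change was 0.42 at 8 h, which did not pass (adjusted p = 0.0543) but was called with DESeq2 (0.42, adjusted p = 0.0343), library size alone (0.74, adjusted p = 0.00431), no filter, limma and without 0 h replicate 1. It was 1.67 ± 0.15 (adjusted p = 8.84e-05), 1.89 ± 0.15 (adjusted p = 3.04e-05) and 1.56 ± 0.15 (adjusted p = 7.39e-05) at 24, 48 and 72 h. Isg20, which encodes an exonuclease for RNA, went the other way. It was at 14.7 and 19.1 CPM at 0 h, 4.14 and 4.25 at 8 h, 4.54 and 4.51 at 24 h, 4.2 and 6.24 at 48 h, and 2.13 and 2.87 at 72 h, and every treated library was below both at 0 h. It fell at all 4 times, with changes of -2.75 ± 0.34 to -1.69 ± 0.32 (largest adjusted p = 0.00235). Cmpk2, a nucleotide kinase of mitochondria, and Rsad2, which encodes viperin, are neighbouring genes. Cmpk2 was at 23.8 and 20.5 CPM at 0 h, 109.6 and 117 at 8 h, 47 and 42.7 at 24 h, 31.3 and 62.2 at 48 h, and 29.1 and 53.1 at 72 h, and Rsad2 at 2.72 and 3.62 CPM at 0 h, 29.8 and 30.4 at 8 h, 8.32 and 5.22 at 24 h, 1.90 and 14.2 at 48 h, and 2.0 and 11.1 at 72 h. Both were highest at 8 h, where Cmpk2 rose by 2.35 ± 0.35 (adjusted p = 0.00133) and Rsad2 by 3.25 ± 0.92 (adjusted p = 0.0234). Cmpk2 was also called at 24 h (1.02 ± 0.35, adjusted p = 0.0369) and 48 h (1.07 ± 0.35, adjusted p = 0.0276). The 24 h call was lost without any 1 of its 4 libraries (adjusted p 0.0721 to 0.151), and the 48 h call without either 0 h library or without 48 h replicate 2 (adjusted p 0.0707 to 0.248). Rsad2 was not called after 8 h, and its 8 h call was lost without 0 h replicate 1 or 2 or 8 h replicate 2 (adjusted p 0.059 to 0.122). At 48 and 72 h its replicate 1 libraries were below 0 h and its replicate 2 libraries above.

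Among the other restriction factors, Bst2, which encodes tetherin, was at 52.1 and 40.4 CPM at 0 h, 43.3 and 25.6 at 8 h, 21.2 and 16.4 at 24 h, 18 and 30.0 at 48 h, and 14.8 and 29.2 at 72 h. It fell at 24 h (-1.30 ± 0.39, adjusted p = 0.0223) and at 72 h (-1.07 ± 0.39, adjusted p = 0.0418). The 24 h call was lost without 0 h replicate 1 or 24 h replicate 2 (adjusted p 0.102 to 0.123), the 72 h call without either 0 h library or 72 h replicate 1 (adjusted p 0.0759 to 0.219), and both with library size alone (-0.99, adjusted p = 0.0571 and -0.71, adjusted p = 0.143). Samd9l, an inhibitor of translation, fell at 8 h (-0.83 ± 0.25, adjusted p = 0.0296) and 24 h (-0.72 ± 0.25, adjusted p = 0.0403), which rested on 0 h replicate 1 at 261 CPM beside 181 CPM in replicate 2. Without it the values were -0.50, adjusted p = 0.229 and -0.40, adjusted p = 0.308, without 8 h replicate 2 -0.67, adjusted p = 0.148, without 24 h replicate 2 -0.53, adjusted p = 0.189, and with library size alone -0.52, adjusted p = 0.117 at 8 h and -0.42, adjusted p = 0.191 at 24 h. Ifitm3, which blocks virus entry and has close relatives, had changes of -1.58 to -0.69, none called. Mx1 and Mx2, dynamin-like antiviral GTPases, had at most 8 and 18 counts in any time-course library, in each case at 8 h, and were not tested.

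The 3 genes of the ISG15 pathway rose at 8 h, and their mean level was lower at each later time. Isg15 encodes the ubiquitin-like modifier itself. It was at 0.618 and 1.53 CPM at 0 h, 8.98 and 10.9 at 8 h, 3.02 and 2.73 at 24 h, 1.08 and 4.93 at 48 h, and 1.75 and 2.03 at 72 h, and rose by 3.20 ± 0.70 (adjusted p = 0.00778) at 8 h, with 1.42, 1.48 and 0.83 at the later times, none called. Without 0 h replicate 1 the 8 h value was 2.72, adjusted p = 0.0587. Usp18, the protease that removes ISG15 and also dampens the interferon receptor, was at 0 and 0.836 CPM at 0 h, 16.6 and 10.3 at 8 h, 1.62 and 2.25 at 24 h, 2.30 and 8.27 at 48 h, and 0.626 and 2.99 at 72 h. It rose by 5.02 ± 1.13 (adjusted p = 0.0088) at 8 h and 3.67 ± 1.14 (adjusted p = 0.0235) at 48 h. The 48 h call was lost without 0 h replicate 1 (2.69, adjusted p = 0.101) or without 48 h replicate 2 (2.48, adjusted p = 0.158). Herc6, whose product attaches ISG15 in mouse cells, was at 14.7 and 10.9 CPM at 0 h, 46.0 and 39.1 at 8 h, 29.0 and 28.2 at 24 h, 22.6 and 29.3 at 48 h, and 25 and 20.9 at 72 h. All treated libraries were above both at 0 h, and the gene rose at all 4 times, by 0.84 ± 0.21 to 1.73 ± 0.21 (largest adjusted p = 0.00926). The 72 h call was lost without 0 h replicate 2 or without 72 h replicate 1 (adjusted p 0.0549 to 0.0563). In the plot of levels by time, Isg15, Usp18, Rsad2, Cmpk2 and Ifit2 share a high point at 8 h.

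**Figure D3:**
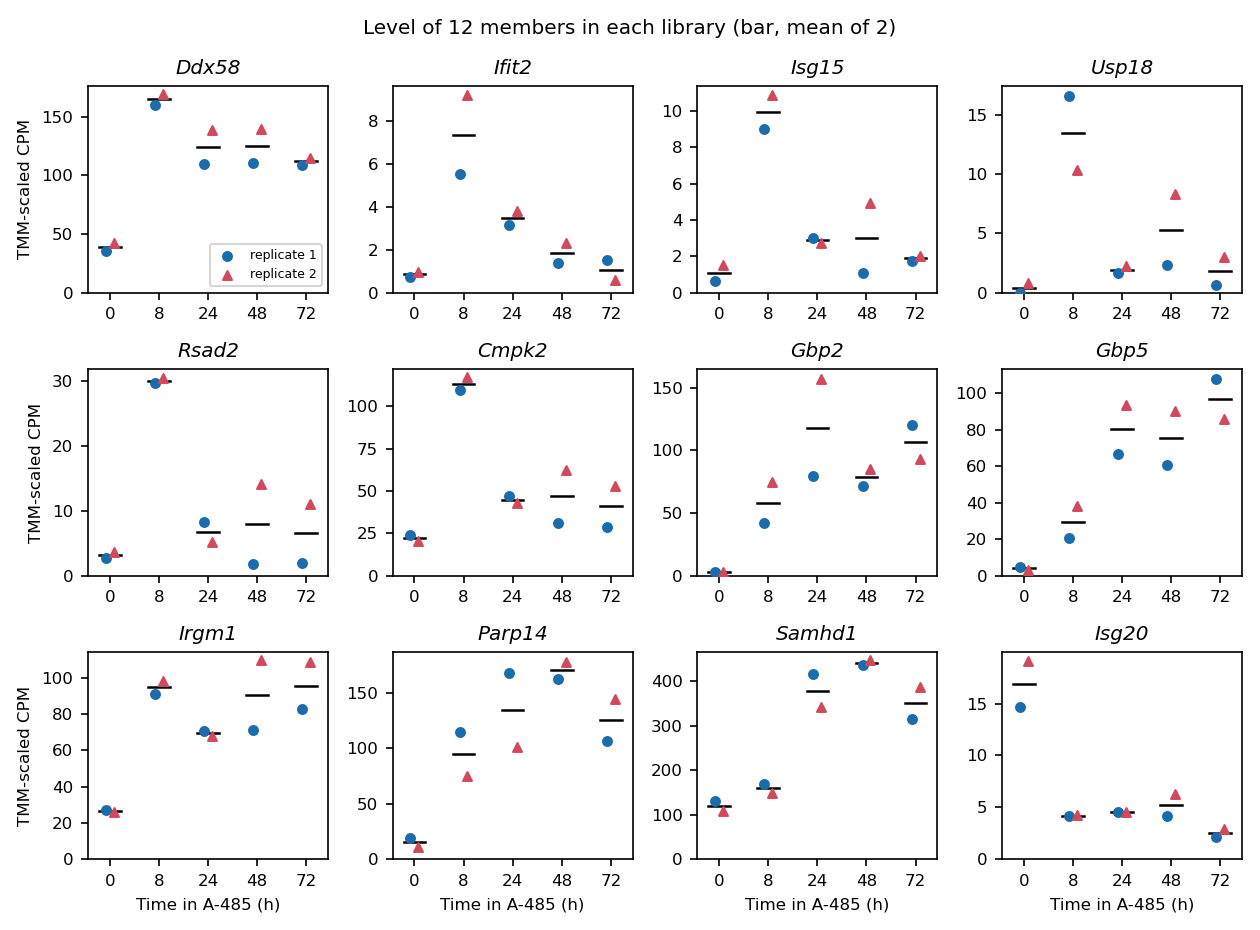
TMM-scaled CPM (y axis, from 0) of 12 ISGs against time in A-485 (x axis, 0 to 72 h), with each of the 2 libraries of a time as a point and their mean as a bar. Ifit2, Isg15, Usp18, Rsad2 and Cmpk2 are highest at 8 h, Gbp5 and Samhd1 are higher at 24 h than at 8 h, and Isg20 is below its 0 h level throughout.

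The interferon-induced GTPases, which coat and break the vacuoles of intracellular pathogens, gave some of the largest and longest rises. Gbp2 was at 3.09 and 2.79 CPM at 0 h, 42.0 and 74.6 at 8 h, 79.4 and 157 at 24 h, 71.8 and 85.2 at 48 h, and 121 and 93.3 at 72 h, and rose at all 4 times by 4.30 ± 0.45 to 5.32 ± 0.45 (largest adjusted p = 0.000246). Gbp5 was at 5.07 and 3.06 CPM at 0 h, 20.5 and 38.2 at 8 h, 66.9 and 93.8 at 24 h, 60.5 and 90.5 at 48 h, and 108 and 86.1 at 72 h, and rose by 2.84 ± 0.40 to 4.56 ± 0.41 (largest adjusted p = 0.00105). Both genes were still far above their 0 h level at 72 h, though the mean of Gbp2 was lower at 48 h than at 24 h. The immunity-related GTPases Irgm1 and Irgm2 act as regulators of the other members of their family. Irgm1 was at 27.2 and 26.2 CPM at 0 h, 90.9 and 98.5 at 8 h, 70.5 and 68.1 at 24 h, 71.0 and 109.8 at 48 h, and 83.0 and 108 at 72 h, a rise of 1.38 ± 0.21 to 1.84 ± 0.21 (largest adjusted p = 0.00105). Irgm2 was at 17.3 and 18.5 CPM at 0 h, 46.6 and 56.5 at 8 h, 50.6 and 51.0 at 24 h, 40.2 and 57.9 at 48 h, and 44.5 and 43.5 at 72 h, a rise of 1.30 ± 0.19 to 1.53 ± 0.19 (largest adjusted p = 0.000596). For these 4 genes every treated library was above both 0 h libraries, and no call against 0 h was lost under any alternative setting or without any 1 library. Igtp, also of the immunity-related family, rose by 0.78 ± 0.26 to 0.99 ± 0.25 (largest adjusted p = 0.029) at 8, 24 and 48 h and had 0.67 at 72 h. Its 3 calls were lost without 0 h replicate 1 or 2 or without replicate 2 of the time itself (adjusted p 0.066 to 0.24). Gbp3, a neighbour and close relative of Gbp2, had changes of -0.60 to 0.24, none called, with libraries on both sides of 0 h. Iigp1 had at most 14 counts in any time-course library, in 8 h replicate 2, and was not tested. Reads shared by related GBP and IRG genes were divided between them by the authors' estimation, so their separate levels are less certain.

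Dtx3l and Parp9 encode 2 partners of 1 ubiquitin ligase complex, and Parp14 encodes a large ADP-ribosyltransferase. All 3 rose and stayed high. Parp9 was at 39.9 and 38.3 CPM at 0 h, 81.9 and 111 at 8 h, 99.4 and 124 at 24 h, 83.0 and 115 at 48 h, and 88.4 and 99.8 at 72 h, a rise of 1.27 ± 0.21 to 1.51 ± 0.21 (largest adjusted p = 0.00172). Dtx3l was at 69.7 and 77.4 CPM at 0 h, 108 and 115 at 8 h, 139 and 137 at 24 h, 135 and 152 at 48 h, and 124 and 129 at 72 h, a rise of 0.60 ± 0.10 to 0.96 ± 0.10 (largest adjusted p = 0.00261). Parp14 was at 19.4 and 11.3 CPM at 0 h, 114 and 75.2 at 8 h, 168 and 101 at 24 h, 162 and 178 at 48 h, and 107 and 144 at 72 h, a rise of 2.62 ± 0.35 to 3.46 ± 0.36 (largest adjusted p = 0.000768). For all 3 the treated libraries were above both 0 h libraries, and no call against 0 h was lost under any setting or without any 1 library. Parp12, which encodes another ADP-ribosyltransferase, behaved unlike them. It was at 1.36 and 2.37 CPM at 0 h, 4.83 and 0 at 8 h, 3.67 and 0 at 24 h, 4.06 and 13.3 at 48 h, and 0.877 and 10.5 at 72 h, with 0 counts in replicate 2 at 8 and 24 h. Its changes of 0.38, 0.01, 2.22 and 1.62 at 8, 24, 48 and 72 h did not pass, and its 2 libraries lay far apart at each treated time.

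The remaining ISGs have varied roles. Cxcl10, the gene of a chemokine that draws T cells, was at 0.247 and 1.95 CPM at 0 h, 2.53 and 22.6 at 8 h, 0.108 and 0.119 at 24 h, 0.406 and 0 at 48 h, and 0 and 0.239 at 72 h. Its rise at 8 h, 3.53 ± 1.22 (adjusted p = 0.0478), came from replicate 2. Without that library the value was 1.22, adjusted p = 0.525, and without 0 h replicate 1 or 2 it was 2.73, adjusted p = 0.207 and 5.63, adjusted p = 0.068. From 24 h on it had at most 3 counts in the 2 libraries of a time together. Lgals3bp, which encodes a secreted galectin-binding protein, was at 265 and 217 CPM at 0 h, 158 and 159 at 8 h, 126 and 157 at 24 h, 79.5 and 156 at 48 h, and 61.5 and 93.7 at 72 h. It fell at 48 h (-1.04 ± 0.30, adjusted p = 0.018) and 72 h (-1.64 ± 0.31, adjusted p = 0.00222), and all treated libraries were below both at 0 h. The 48 h call was lost without 0 h replicate 1 (-0.83, adjusted p = 0.117), without 48 h replicate 1 (-0.63, adjusted p = 0.0929) and with library size alone (-0.68, adjusted p = 0.0805). Tor3a, a torsin ATPase gene, was at 50.7 and 50.6 CPM at 0 h, 68.4 and 62.0 at 8 h, 69.8 and 66.8 at 24 h, 66.0 and 81.2 at 48 h, and 70.2 and 76.8 at 72 h. It rose by 0.43 ± 0.13 to 0.54 ± 0.13 (largest adjusted p = 0.0244) at 24, 48 and 72 h, and had 0.36 at 8 h. The 24 h call was lost without any 1 of its 4 libraries (adjusted p 0.0553 to 0.08) and the 48 h call without 48 h replicate 2 (0.38, adjusted p = 0.0728). Ifi35 was at 28.8 and 30.9 CPM at 0 h, 45.2 and 33.3 at 8 h, 35 and 38.1 at 24 h, 22.6 and 31.0 at 48 h, and 34.7 and 33.7 at 72 h, with changes of -0.15 to 0.40, none called. Xaf1, a gene linked to cell death, rose at 48 h (2.56 ± 0.85, adjusted p = 0.031), which was lost without 0 h replicate 1 (1.89, adjusted p = 0.153) or without 48 h replicate 1 or 2 (2.89, adjusted p = 0.053 and 2.14, adjusted p = 0.13). Sp100, a nuclear body component, had changes of -0.13 to 0.34. Ifi44 and Rtp4 had at most 4 and 12 counts in any time-course library and were not tested.

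The times also differed from each other. By mean CPM, 14 of the 40 tested ISGs were highest at 8 h, 5 at 24 h, 13 at 48 h, 2 at 72 h and 6 at 0 h. Between 8 and 72 h, 9 ISGs fell and 2 rose (background 17.2% lower and 15.1% higher, 32.2% in all). Ifit2 fell by 2.80 ± 0.57 (adjusted p = 0.00646), which held in all settings and without any 1 library. Herc6 had -0.89 ± 0.20 (adjusted p = 0.0109), Cmpk2 -1.46 ± 0.34 (adjusted p = 0.0112), Eif2ak2 -0.50 ± 0.12 (adjusted p = 0.0136), Isg15 -2.38 ± 0.66 (adjusted p = 0.0242), Ddx58 -0.56 ± 0.16 (adjusted p = 0.0247), Lgals3bp -1.03 ± 0.30 (adjusted p = 0.0312) and Usp18 -2.88 ± 0.94 (adjusted p = 0.0452). Cxcl10 had 2 counts at 72 h against 224 at 8 h, a ratio of 0.00963 with a 95% exact counting interval of 0.00116 to 0.0352 (adjusted p = 0.0136). Gbp5 and Samhd1 were the risers, with 1.73 ± 0.34 (adjusted p = 0.00552) and 1.14 ± 0.15 (adjusted p = 0.000886). Both rises held in every setting. The 9 falls became 2 to 5 when 1 library was left out: 4 without either 8 h library, 2 without 72 h replicate 1 and 5 without 72 h replicate 2. On the log2(TPM + 1) scale, 5 fell and 5 rose, beside 1240 and 3217 of all genes. From 8 to 24 h, 2 rose and 3 fell (background 9.73% and 12%, 21.7% in all). Samhd1 rose by 1.24 ± 0.15 (adjusted p = 0.00146) and Gbp5 by 1.45 ± 0.34 (adjusted p = 0.0172). Cmpk2 had -1.34 ± 0.34 (adjusted p = 0.0233), Eif2ak2 -0.39 ± 0.12 (adjusted p = 0.0474), and Cxcl10 2 counts against 224 (adjusted p = 0.0188). Of these 5, Samhd1 alone was called without each library in turn. Gbp5 missed when 8 h replicate 1 was left out (1.06, adjusted p = 0.0676) and when 24 h replicate 2 was (1.19, adjusted p = 0.0656), and the 3 falls became 1 or 0.

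The 2 libraries of a time differed in their ISGs most at the late times. At 48 h replicate 2 was above replicate 1 for 39 of the 40 tested ISGs, where 49% of all genes were higher in replicate 2. It was at least 2-fold above for 12 of the 40 (30%), while 1.73% of all genes were at least 2-fold apart in either direction, measured on CPM + 1. At 72 h replicate 2 was higher for 32 of 40 and at least 2-fold above for 10 (25%, beside 3.39% of all genes). At 0, 8 and 24 h, 5%, 7.5% and 10% of the ISGs were 2-fold apart, beside 1.96%, 5.56% and 7% of all genes. The ISGs furthest apart at 48 h were Oas3 (1.76 and 27.0 CPM), Oas2 (3.79 and 35.5), Oasl2 (5.42 and 38.2), Rsad2 (1.90 and 14.2) and Ifit1 (2.03 and 12.6). The same 5 were at least 2-fold higher in replicate 2 at 72 h, with Oas2 at 3.01 and 15.6 and Oasl2 at 1.5 and 11.5 CPM. At 8 and 24 h there was no common direction, with replicate 2 higher for 22 and 17 of 40. Cxcl10 was higher in replicate 2 at 8 h (2.53 and 22.6 CPM) and Gbp3 at 24 h (43.2 and 107). A few ISGs were lower in replicate 2 at both times. Parp12 was at 4.83 and 0 at 8 h and 3.67 and 0 at 24 h, Oasl2 at 12.1 and 1.79 and 7.99 and 2.25, and Ifitm3 at 14.2 and 6.6 and 16.7 and 5.93.

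Some genes outside the list parted the libraries as these 3 ISGs did, and are named here after their values were seen. Irf9, the DNA-binding subunit of the type I interferon factor, was at 67.7 and 31.6 CPM at 8 h, 73.2 and 30.9 at 24 h, 53.1 and 74.7 at 48 h and 29.2 and 63.2 at 72 h. Stat2 was at 93.1 and 55.7, 126 and 63.7, 109 and 133 and 74.1 and 118 CPM. Wnt2, a secreted ligand gene, was at 56.4 TPM in 8 h replicate 2, 59.3 in 24 h replicate 2 and 21.2 in 72 h replicate 1, and at 0.13 to 2.17 in the other 7 time-course libraries. The libraries high in Wnt2 are those low in Irf9 within their time. What part these differences between libraries had in the changes over time was not tested.

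**Figure D4:**
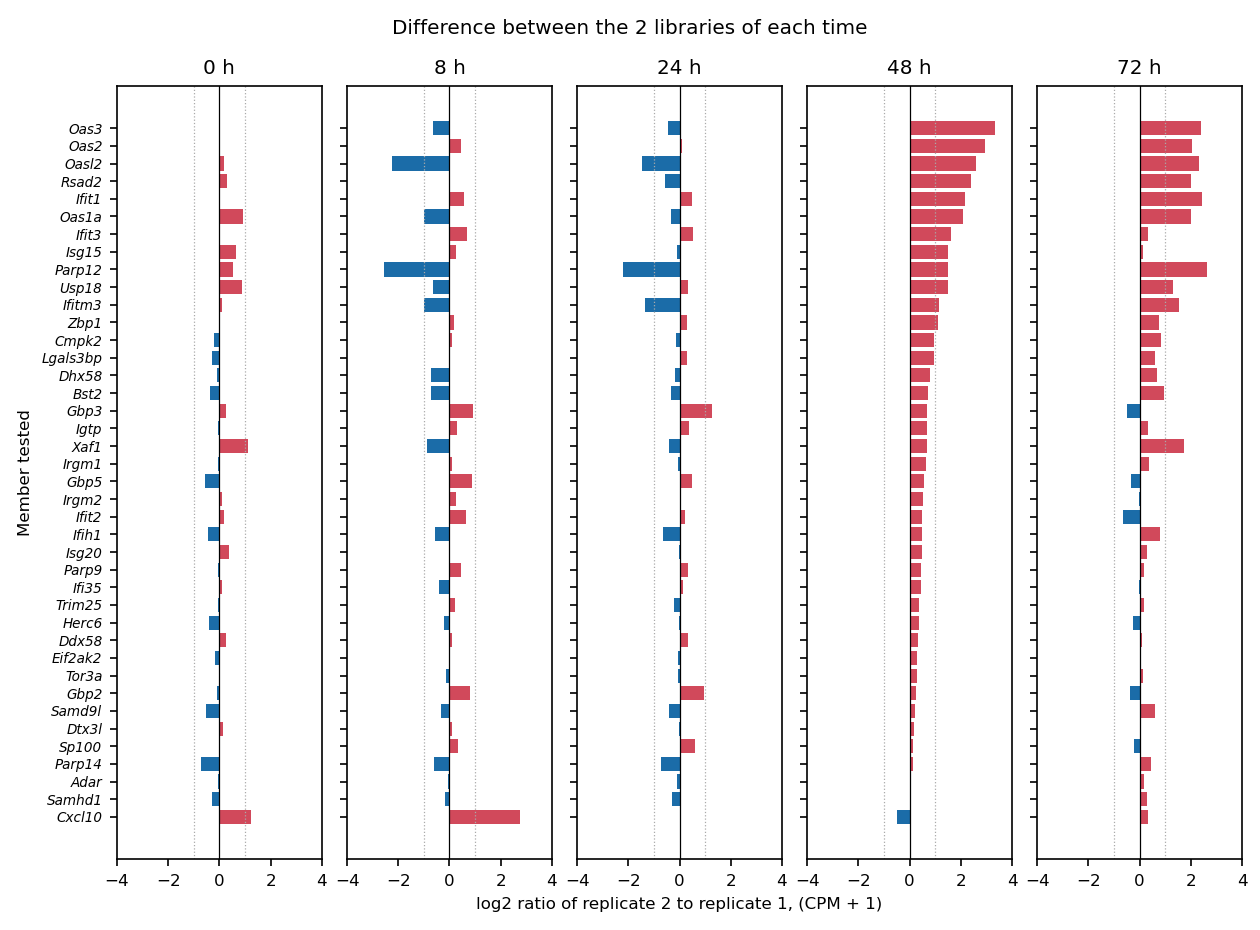
Log2 ratio of replicate 2 to replicate 1, on CPM + 1 (x axis), for each of the 40 tested ISGs (rows, ordered by the difference at 48 h), in 1 panel per time. Dotted lines mark 2-fold. At 48 h all bars but that of Cxcl10 point to replicate 2, and at 72 h 32 of 40 do.

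Interferons, their receptors, kinases and transcription factors were not among the 47. Of 9 interferon genes listed, none was above single counts: Ifna1, Ifna2, Ifna4, Ifna5, Ifnb1, Ifnl2 and Ifnl3 had 0 counts in all 10 time-course libraries, which allows up to 3 counts per library, and Ifnab and Ifng had 1 count each, at 0 h. Of 30 further pathway genes tested, 7 rose and 8 fell at 8 h, 16 and 4 at 24 h, 19 and 4 at 48 h, and 14 and 5 at 72 h. These are 23.3% and 26.7% at 8 h, near the 17.9% and 21% of all genes, then 53.3% and 13.3% (all genes 23.2% and 27.1%), 63.3% and 13.3% (25.2% and 30.5%), and 46.7% and 16.7% (25.9% and 29.4%). Their median log2 change was 0.14, 0.58, 0.74 and 0.57. The receptor chains went in different directions. Ifngr1 was at 505 and 443 CPM at 0 h, 106 and 102 at 8 h, 140.4 and 109 at 24 h, 153 and 138 at 48 h, and 122 and 145 at 72 h, with changes of -2.18 ± 0.15 to -1.70 ± 0.15 (largest adjusted p = 4.56e-05). Ifngr2, its partner chain, rose by 0.53 ± 0.11 to 1.82 ± 0.11 (largest adjusted p = 0.0049), and Ifnar1 by 0.55 ± 0.10 to 1.11 ± 0.10 (largest adjusted p = 0.00384). The kinase genes Jak1 and Tbk1 rose, by 0.59 ± 0.11 to 1.01 ± 0.11 (largest adjusted p = 0.00369) and 0.57 ± 0.11 to 0.99 ± 0.11 (largest adjusted p = 0.0036), as did Pias1, a STAT inhibitor, by 0.62 ± 0.13 to 1.18 ± 0.13 (largest adjusted p = 0.00647). Socs3, a feedback inhibitor of JAK kinases, fell, with changes of -3.08 ± 0.40 to -1.77 ± 0.38 (largest adjusted p = 0.00413). Tmem173, which encodes the adaptor STING, rose from 24 h on by 0.59 ± 0.11 to 0.94 ± 0.11 (largest adjusted p = 0.00173). Irf7, itself induced by interferon, is given beyond those 8 after its values were seen. It was at 5.19 and 5.01 CPM at 0 h, 73.5 and 47 at 8 h, 50.1 and 48.2 at 24 h, 41.0 and 68.5 at 48 h, and 25.8 and 51.4 at 72 h, a rise of 2.92 ± 0.41 to 3.56 ± 0.42 (largest adjusted p = 0.000483).

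A second list of 46 interferon-induced genes, none of them among the 47, had 35 genes with enough counts. Like the 47, these genes were chosen with earlier results of these data known, so they are not an independent check. Of these 15 rose and 7 fell at 8 h, 19 and 7 at 24 h, 19 and 7 at 48 h, and 17 and 8 at 72 h, with medians of 1.00, 0.91, 1.00 and 0.87. With the gene that had no count at 0 h held at its lower bound, the median at 72 h was 0.74 and the others did not move. The higher shares were 42.9%, 54.3%, 54.3% and 48.6%, beside 17.9%, 23.2%, 25.2% and 25.9% of all genes. The lower shares were 20%, 20%, 20% and 22.9%, beside 21%, 27.1%, 30.5% and 29.4%. The 8 with the smallest joint p split evenly by direction. Tgtp2, an IRG-type GTPase gene, rose by 2.51 ± 0.23 to 3.48 ± 0.24 (largest adjusted p = 0.000145), Slfn8 by 2.08 ± 0.27 to 3.23 ± 0.27 (largest adjusted p = 0.000646), Tdrd7 by 2.04 ± 0.20 to 2.36 ± 0.20 (largest adjusted p = 0.000165) and Trim30a by 1.53 ± 0.18 to 1.84 ± 0.18 (largest adjusted p = 0.000466). Tgtp2 has a near-identical neighbour, Tgtp1, so its count is less certain. Ly6e, the gene of a small cell-surface protein, fell, with changes of -1.92 ± 0.18 to -1.41 ± 0.18 (largest adjusted p = 0.000599), from 1565 and 1329.8 CPM at 0 h to 334 and 429 at 72 h. Ifitm2, a relative of Ifitm3, changed by -1.69 ± 0.11 to -0.65 ± 0.11 (largest adjusted p = 0.00133), Mlkl, which carries out necroptosis, by -1.79 ± 0.15 to -0.77 ± 0.15 (largest adjusted p = 0.00436), and Pml, the core gene of PML nuclear bodies, by -1.21 ± 0.12 to -0.69 ± 0.12 (largest adjusted p = 0.0016).

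The 3 single libraries have no replicates, so their values are ratios with no test. A log2 ratio here is of CPM after TMM scaling, with 5 prior counts, brackets hold the 95% exact interval of the 2 counts, which covers counting error only, and an ISG was considered where either library reached 1 CPM. Against GMP, LSC held more ISGs at a lower level than at a higher one: of 43, 7 lay 2-fold or more above GMP and 17 lay 2-fold or more below (all genes: 13.4% and 12.2%), with a median of -0.45. The 6 largest ratios upwards were Oas2 2.85 [2.45, 3.58], Ddx58 1.73 [1.57, 1.92], Cxcl10 1.71 [1.16, 2.70], Sp100 1.47 [1.40, 1.54], Samd9l 1.40 [1.23, 1.59] and Oas1a 1.18 [1.04, 1.32]. Downwards they were Gbp5 -4.44 [-5.34, -4.14], Oasl2 -3.45 [-4.37, -3.11], Ifi204 -3.35 [-4.84, -2.98], Ifitm3 -3.18 [-3.46, -2.98], Mx1 -2.83 [-5.17, -2.43] and Gbp3 -2.82 [-2.99, -2.69]. Gbp5 was at 0.648 CPM in LSC and 16.9 in GMP, and Ddx58 at 40.5 and 12.1. Members of 1 family therefore lay on both sides, as Oas2 and Oasl2 show.

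In mAML most ISGs were higher than in LSC, with 25 of 45 higher by 2-fold or more and 1, Cxcl10 at -1.26 [-1.92, -0.84], lower by that much (all genes: 16.3% and 8.58%). The median ratio was 1.23. Ifi204 was at 49.8 CPM in mAML and 0.299 in LSC (6.84 [6.57, 8.33]), Mx1 at 18.9 and 0.150 (6.06 [5.85, 8.43]), and Ifitm3 at 208 and 4.29 (5.56 [5.38, 5.83]). Mx2 had 178 counts in mAML and 1 in LSC, a log2 ratio without prior count of 7.34 [4.84, 12.65]. Zbp1 had 4.21 [3.95, 4.72] and Ifit3 4.02 [3.71, 5.42]. After Cxcl10, the lowest ratios were Ddx58 -0.80 [-0.92, -0.69], Ifit2 -0.45 [-0.60, -0.31], Ifih1 -0.15 [-0.27, -0.04] and Sp100 with an interval of [-0.04, 0.04], and no further ISG was lower in mAML. Against GMP, 20 of 44 lay 2-fold or more above in mAML and 2 lay as far below (all genes: 22.1% and 15.1%), with a median of 0.89. The highest were Ifit3 4.22 [3.74, 6.12], Oas3 3.91 [3.65, 4.29], Zbp1 3.65 [3.36, 4.12], Ifi204 3.50 [3.26, 3.82], Oas2 3.36 [2.98, 4.09] and Mx1 3.23 [2.91, 3.77]. The lowest were Gbp5 -2.70 [-3.08, -2.46], Gbp3 -1.60 [-1.71, -1.5], Lgals3bp -0.77 [-0.86, -0.69], Ifit2 -0.72 [-0.87, -0.57], Irgm1 -0.54 [-0.67, -0.41] and Eif2ak2 -0.36 [-0.45, -0.27].

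Kit was at 113 TPM in GMP, 93.4 in LSC and 0.63 in mAML. Markers of other cells were present in the mAML library. The 6 plasmacytoid dendritic markers summed to 31.8 TPM there, 6.82 in LSC and 8.44 in GMP, and Siglech was at 4.72, 0 and 0.08 TPM. None of the 8 T and NK markers was at 0 counts in mAML, with Cd3e at 6.32 TPM, while Cd3e was at 0 in LSC and GMP. Their sum of 121 TPM in mAML, 154 in LSC and 997 in GMP was set by Nkg7 in LSC and GMP, where it stood at 153 and 996 TPM, with 43.3 in mAML. Ifng had 100 counts in mAML and 0 in both GMP and LSC, and the other interferon genes on the list had 0 in all 3. The 5 erythroid markers summed to 1360 TPM in mAML, 3.63 in LSC and 87.9 in GMP, nearly all from Hbb-b1. The 7 monocyte and macrophage markers summed to 7980, 4196 and 5019 TPM in mAML, LSC and GMP, and the 6 progenitor markers to 861, 18983 and 26071. The part of these other cells in the ISG levels of mAML was not tested.

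**Figure D5:**
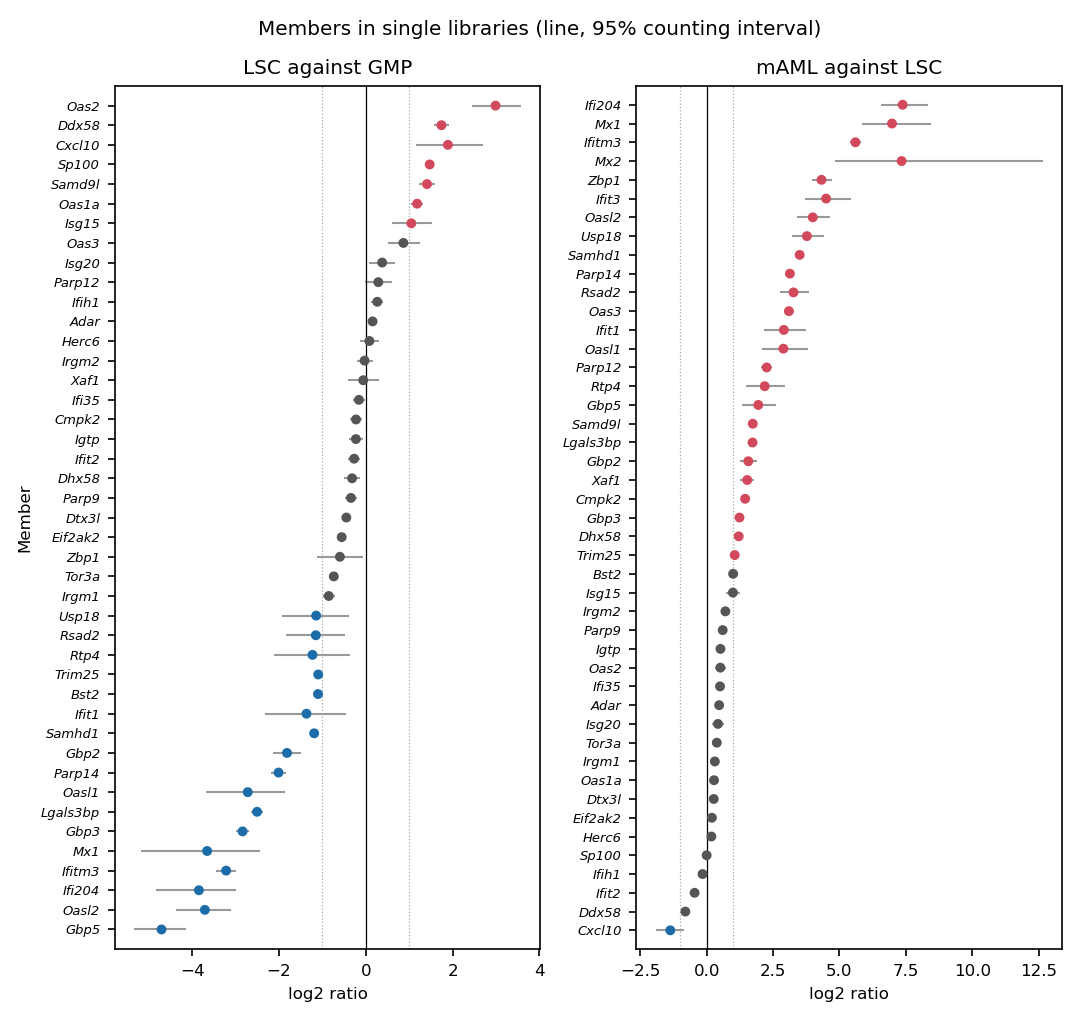
Log2 ratio of each ISG between single libraries (x axis, without prior count), ordered by size, with the 95% exact counting interval as a line. In LSC against GMP the 43 ISGs spread from Gbp5 to Oas2 on both sides of 0, and in mAML against LSC 25 of 45 lie beyond 2-fold (dotted lines) on the mAML side.

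Levels per length put the 3 cell types and the treated cells side by side, with no test, since nothing says that these libraries were made in 1 experiment. The summed TPM of the 47 ISGs was 891 in GMP, 536 in LSC, 1592 in mAML, 780 and 849 in LSC at 0 h, and 1379 to 1924 under A-485. The median TPM change of all genes tested was also upwards from 0 h to A-485, as given above. Single genes stood at different levels in the LSC library and at 0 h, although both carry the label of leukemia stem cells. Oas1a was at 37.5 TPM in the LSC library and 0.340 and 1.23 at 0 h, and Ifit2 at 8.23 beside 0.220 and 0.290. Lgals3bp was at 10.5 TPM in LSC and 156 and 127 at 0 h, and Samd9l at 8.91 and 57.6 and 39.8. Gbp5, the ISG furthest below GMP in LSC, was at 0.320 TPM there, 9.88 in GMP and 73.4 and 55.9 after 72 h of A-485. Samhd1 was at 185 TPM in mAML and 17.2 in LSC, and at 211 and 213 after 48 h of A-485. Ifi204, Mx1 and Mx2, which lay far above LSC in mAML, had at most 3, 8 and 18 counts in any time-course library. In TPM they were at 31.4, 9.8 and 2.4 in mAML and at most 0.23, 0.55 and 1.45 in the time course. Mx2 in 8 h replicate 2 was thus not far from its mAML level.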

How the data were processed

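Per the submitters' processing notes and the file headers, reads were aligned with STAR to mouse build mm9 and quantified per gene with RSEM. Versions, settings and strandedness: not given in the sources used here. Reads that related genes share are divided between them by RSEM, so the expected counts that the authors deposited need not be whole. The deposited TPM values are scaled by the authors for transcript length and library. The other deposited column used holds effective transcript lengths in bases.

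Expected counts of the 10 time-course libraries were rounded, filtered with edgeR's filterByExpr (11119 genes kept) and fitted in 1 model with TMM scaling and edgeR 4.0.16's quasi-likelihood test, without a replicate block, in R 4.3.3. P-values are Benjamini-Hochberg adjusted over all genes tested, and the standard error was taken as the size of the log2 change over the root of the F statistic. The common biological coefficient of variation was 0.186. Alternatives were DESeq2 1.42.0, limma 3.58.1 on log2(TPM + 1) and log2(TPM + 0.1), library size alone, no low-count filter, a replicate block, removal of the trend on transcript length, and leaving out each library, which assumes that a lone library varies like the others. GMP, LSC and mAML were compared by ratios with exact binomial intervals, which cover counting error only. Genes with 0 counts at 0 h are given as bounds against a floor of 3 counts over the 2 libraries. The script was tested on simulated data.

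All 47 genes are accounted for. The 4 with the smallest joint p in each role group are given in full, of each further list the 8 with the smallest joint p, and of single libraries the 6 largest ratios in each direction. The members and lists were chosen with earlier results of these data known. Promoter sequences are from RefSeq and were matched by symbol, and their GRCm38.p6 coordinates were not joined to the mm9 files.

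A result for 1 further item is not reported here.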

Additional observations from a re-analysis of the deposited data

Results flagged for a closer look

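Some ISGs differed between 2 times of A-485 by a test of the difference itself (edgeR's quasi-likelihood test, adjusted p under 0.05 over all genes). Between 8 and 24 h the log2 difference was 1.24 for Samhd1, 1.45 for Gbp5, -1.34 for Cmpk2 and -0.39 for Eif2ak2. For Cxcl10 the fitted value was -6.61, which rests on 2 counts at 24 h. Between 8 and 72 h it was 1.14 for Samhd1 and 1.73 for Gbp5, which encode a nucleotide-degrading enzyme and a GTPase. It was -2.80 for Ifit2, -0.89 for Herc6, -1.46 for Cmpk2, -0.50 for Eif2ak2, -2.38 for Isg15, -0.56 for Ddx58, -1.03 for Lgals3bp and -2.88 for Usp18. Lgals3bp is the one of these that was already below its 0 h level at 8 h. For Cxcl10 the fitted value of -6.52 rests on 2 counts at 72 h. Samhd1 at both steps and Gbp5 and Ifit2 from 8 to 72 h passed without each library in turn and under every other setting.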

How the results depend on the processing

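With library size alone and in limma on log2(TPM + 1) and log2(TPM + 0.1), the ISGs that fell were 1 at 8 h, 1 at 24 h, 1 at 48 h and 2 at 72 h. Over all genes these settings gave 1302 to 2337 falls at these times. At 72 h log2(TPM + 0.1) gave 25 rises among the ISGs, beside 6137 rises among all 11119 genes tested. From 8 to 72 h, limma gave 5 rises at either pseudocount, with 5 falls at log2(TPM + 1) and 4 at log2(TPM + 0.1). Over all genes these pseudocounts gave 3217 and 3181 rises and 1240 and 1234 falls. From 8 to 24 h DESeq2 gave 5 falls, and 1342 over all genes. Leaving out 1 library gave 12 to 16 rises and 1 to 3 falls at 24 h, 14 to 24 rises and 1 to 2 falls at 48 h, and 1 to 2 falls at 8 h. At 72 h it gave 2 to 5 falls, from 8 to 24 h 1 to 4 rises and 0 to 1 falls, and from 8 to 72 h 2 to 5 falls. In the single libraries, log2(TPM + 1) gave 4 ISGs higher in LSC than in GMP, and a minimum of 10 CPM in the higher library gave 4 higher and 9 lower. That minimum gave 15 higher and 0 lower in mAML than in LSC.

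Single changes also turned sign, most of them never called. Trim25 had 0.0428 at 8 h and 0.12 at 48 h with library size alone. In limma at pseudocounts of 1 and 0.1 it had 0.17 and 0.18 at 8 h, 0.14 and 0.15 at 24 h, 0.42 and 0.43 at 48 h, and 0.28 and 0.28 at 72 h. The 48 h values were called higher by limma (adjusted p = 0.03892 and 0.03855). With the length trend removed, edgeR called Trim25 lower at 48 h (-0.54, adjusted p = 0.017). Ifi35 at 48 h had 0.20 with library size alone, 0.50 and 0.51 in limma and 0.17 with the length trend removed. Its limma values were called (adjusted p = 0.02725 and 0.0266). Parp12 at 24 h had -0.0226 in DESeq2, -0.76 at log2(TPM + 0.1), -0.0489 with the length trend removed and -0.0115 with a replicate block, and at 8 h -0.62 at log2(TPM + 0.1). Ifih1 had -0.0671 at 72 h with the length trend removed. Leaving out 1 library gave -0.12 to 0.54 for Ifih1 at 24 h and -0.27 to 0.54 at 72 h, -0.81 to 2.77 for Oas3 at 72 h, -0.50 to 0.81 for Ifit2 at 72 h, -0.73 to 2.17 for Rsad2 at 48 h and -0.65 to 1.81 at 72 h. It gave -6.91 to 1.38, -6.90 to 0.98 and -1.06 to 2.50 for Parp12 at 8, 24 and 72 h, and -0.40 to 0.059 for Ifi35 at 48 h. The Parp12 values of -6.91 and -6.90 are from fits where the lone library of that time had 0 counts. They rest on 11 and 17 counts at 0 h and do not measure the size of a fall. The cause of the sign changes was not tested.

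Library numbers 1 and 2 did not pair the samples in the same way at all times. The correlation of their deviations was 0.644 between 8 and 24 h, -0.402 between 8 and 72 h and -0.408 between 24 and 72 h. For the other pairs of times it was 0.0243 to 0.151. The 8 and 24 h libraries thus shared deviations by number, and the 72 h libraries shared them with the numbers swapped. The model without a block leaves this out, and a block on the number treats all times alike. With a replicate block 21 rose and 2 fell at 8 h, 18 and 3 at 24 h, 22 and 2 at 48 h, and 16 and 3 at 72 h. The block gave 2 rises and 4 falls from 8 to 24 h, 2 and 11 from 8 to 72 h, and 24 of 40 ISGs in the joint test. Over all genes it gave 1902 to 2822 rises and 2295 to 3341 falls against 0 h. From 8 to 24 h it gave 1027 and 1265 over all genes, and from 8 to 72 h 1608 and 1846.

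In the joint test DESeq2 called 30 ISGs, with no adjusted p for 3 of the 47, and edgeR with no filter on low counts called 31. The share of all genes called in the joint test under these settings or the block is not given here. These counts therefore have no background beside them. Mx1, Mx2, Ifi204, Oasl1, Iigp1, Ifi44 and Rtp4 were below the count filter, and depth limits what can be said of them. Leaving out 1 of the 2 libraries of a time leaves fewer samples to test.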
